A study of Mus musculus with 12 samples.

Results

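Messenger RNA of 10 genes of liver X receptor (LXR) signalling and cholesterol efflux was measured in mouse bone marrow-derived macrophages (BMDMs) given IL-4, LPS or both. The genes were picked by symbol, and each of the 10 was found as 1 row among the 23847 rows of the expression tables. They were the receptors Nr1h2 and Nr1h3, the efflux pumps Abca1 and Abcg1, the lipid carrier Apoe, the ubiquitin ligase Mylip, the lipid synthesis and remodelling genes Srebf1, Lpcat3 and Scd2, and the oxysterol enzyme Ch25h. All 10 reached 1 FPKM (fragments per kilobase of transcript, scaled to all mapped fragments of a sample) in at least 1 sample and stood among the 11191 rows that were tested.

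There were 12 samples in 4 groups of 3. All came from wild-type C57BL/6 mice of 8 to 12 weeks, and the marrow cells were matured for 6 days in L929 cell supernatant, which supplies the macrophage growth factor M-CSF. The control group got no further agent, the IL-4 group got IL-4 at 20 ng/ml for 24 h, and the LPS group got LPS at 100 ng/ml for 3 h. The IL-4+LPS group was held in IL-4 for 24 h before LPS was added for 3 h. The LPS dose is as the labels give it, in ng/ml, whereas the methods of the study give it in nM, and which is right is not known here. IL-4 is the cytokine that drives alternative polarization of macrophages, and LPS is a bacterial cell wall lipid that drives their inflammatory activation. The samples came from individual animals in more than 1 experiment, but which sample belonged to which was not given, so the p-values measure the spread between these samples.

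LXRs are nuclear receptors that sense oxysterols, the oxidized forms of cholesterol, and bind DNA as heterodimers with retinoid X receptors (RXRs). In a macrophage loaded with cholesterol they switch on the pumps and carriers that export it, a ubiquitin ligase that limits lipoprotein uptake, and genes of fatty acid synthesis. LXRs are known to switch on Nr1h3 itself in human macrophages, and they are known to dampen inflammatory genes.

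The libraries carried the macrophage label in their markers. The 7 macrophage markers found of the 8 listed were above 1 FPKM in every group, among them Csf1r, the receptor for M-CSF, at 410.7 to 932 FPKM. The summed level of these markers ran from 19233 to 20599 FPKM in control samples, 7571 to 7785 after IL-4, 15468 to 16697 after LPS and 6567 to 6954 after both. The sum was mostly Lyz2, a lysozyme, at 15344 to 16507 FPKM in controls and 4734 to 5051 after IL-4. Neutrophil markers were also present, 7 of 8 listed, with summed levels of 375 to 969, 235 to 448, 568 to 1166 and 469 to 941 FPKM in the same order. Markers of T cells, B cells, fibroblasts and red cells all lay under 1 FPKM. The dendritic cell marker Zbtb46 lay between 0 and 0.562 FPKM in the first 3 groups and between 1.94 and 2.83 FPKM after both agents. The basophil marker Mcpt8 was at most 0.686 FPKM in the first 3 groups and 0.661 to 1.76 FPKM after both. The eosinophil granule gene Prg2 lay between 1.98 and 10.8 FPKM over all samples. The part of these other cells in the results was not tested. The treatments left their known marks, since Retnla went from at most 19.5 FPKM in controls to at least 11617 after IL-4, and Cxcl10 from at most 4.79 to at least 2430 after LPS. Relative depth, read from the steps of low values, spanned 0.992 to 3.3 times that of control replicate 1.

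The samples numbered 1 stood apart from those numbered 2 and 3 in every group, and several of the 10 genes showed it. Replicate 1 held the highest level in 4 of 4 groups for Abca1, Abcg1 and Mylip, and the lowest in 4 of 4 groups for Nr1h2, Srebf1 and Lpcat3. Its Abca1 level was 1.52 to 2.23 times the mean of replicates 2 and 3. Results that turned on these samples are therefore also given for replicates 2 and 3 only. The samples numbered 1 were set aside for a spread seen in these same data, and 2 samples a group remain. Which of them share an experiment is not known. The small p-values of that fit thus do not measure the spread between animals or experiments.

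**Figure D1:**
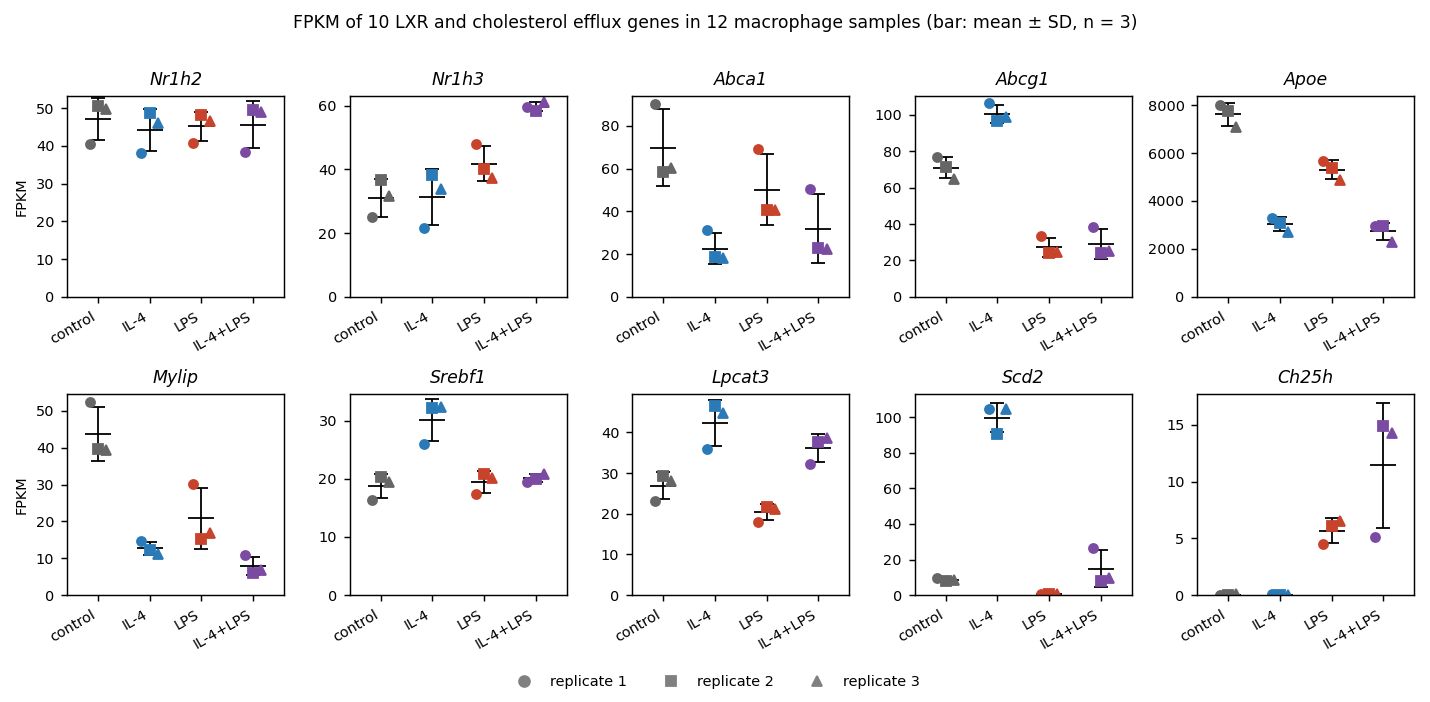
FPKM of each of the 10 genes in the 12 samples, 1 panel per gene with its own linear axis from 0; circles, squares and triangles are replicates 1, 2 and 3, the long bar is the mean and the whiskers are ± 1 SD (n = 3). Nr1h2 stayed between 38.0 and 50.6 FPKM in all samples, while Scd2 ran from 0.587 to 104.3 FPKM and Ch25h was at or below 0.088 FPKM in every sample without LPS.

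IL-4 alone split the 10 genes. Scd2, Srebf1, Lpcat3 and Abcg1 rose and Abca1, Apoe and Mylip fell, so that 4 of 10 were higher and 3 of 10 lower than in control cells. Among all tested rows 16.0% rose and 21.0% fell in that comparison. The median change of the 10 genes on the log2(FPKM + 1) scale was -0.013 and that of all tested rows -0.049. Here and throughout, a gene rose or fell when its limma p-value, adjusted by the Benjamini-Hochberg method over all 11191 rows, was under 0.05. In bulk RNA, fewer cells that carry a transcript and less transcript per cell cannot be told apart. On the log2(FPKM + 1) scale the changes of weakly expressed genes come out too small.

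LPS alone lowered most of the genes that it moved. Abcg1, Apoe, Mylip, Lpcat3 and Scd2 fell and Ch25h rose, which made 5 of 10 lower and 1 of 10 higher. The background was 57.7% of tested rows lower and 16.9% higher, so the share of fallen genes was near that of all rows. The median change was -0.44 for the 10 genes and -0.44 for all rows. FPKM are relative to the mapped fragments of each sample, and with samples scaled to a common median the shift of all rows was -0.14. Under that scaling 3 of the 10 genes were lower (Abcg1, Mylip and Scd2) and 3 higher (Ch25h, Nr1h3 and Srebf1), beside 39.8% and 26.5% of all rows, and the share of all calls that were higher moved from 22.6% to 40.0%.

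After IL-4 pretreatment, LPS raised Nr1h3 and Ch25h and lowered Abcg1, Mylip, Srebf1 and Scd2. These were 2 of 10 higher and 4 of 10 lower, beside 15.0% higher and 57.9% lower among all rows. The median change of all rows was -0.41, and -0.12 with median scaling, where 2 of the 10 genes and 36.3% of all rows were lower. The comparison of IL-4+LPS with LPS asked what the earlier IL-4 changed in LPS-exposed cells. There Lpcat3 and Scd2 were higher and Apoe and Mylip lower, 2 of 10 in each direction, beside 15.0% higher and 15.8% lower among all rows. These comparisons share groups of samples and are not independent of each other.

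The interaction is the response to LPS with IL-4 pretreatment minus the response without it. Srebf1 alone among the 10 genes passed, with a negative sign, and 0 were positive in the limma fit. Among all rows 4.58% were positive and 4.63% negative. At an unadjusted p under 0.05 there were 2 of the 10, in either direction, beside 2703 of the 11191 rows. In a per-gene analysis of variance, the F test of the interaction called 0 of the 10 positive and 1 negative. That F test, unadjusted across genes, called 1436 of all rows positive and 1231 negative. With replicates 2 and 3 only, limma called 4 of the 10 positive and 3 negative. The limma shares of all rows also went up, from 4.58% and 4.63% to 13.2% and 12.4%. The values of the interaction mostly moved little between these fits, from 0.53 to 0.53 for Nr1h3, 0.90 to 0.82 for Abca1, 0.44 to 0.48 for Mylip and -0.42 to -0.50 for Abcg1. They moved more for Ch25h, from 0.79 to 1.17, and for Scd2, from -0.38 to -0.92. The Scd2 value, counted among the 3 negative, rests on LPS samples under 1 FPKM, where this scale makes changes too small. Over all samples the Scd2 interaction was 0.43 with a pseudocount of 0.1. The number of calls, more than the values, differed without the samples numbered 1.

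**Figure D2:**
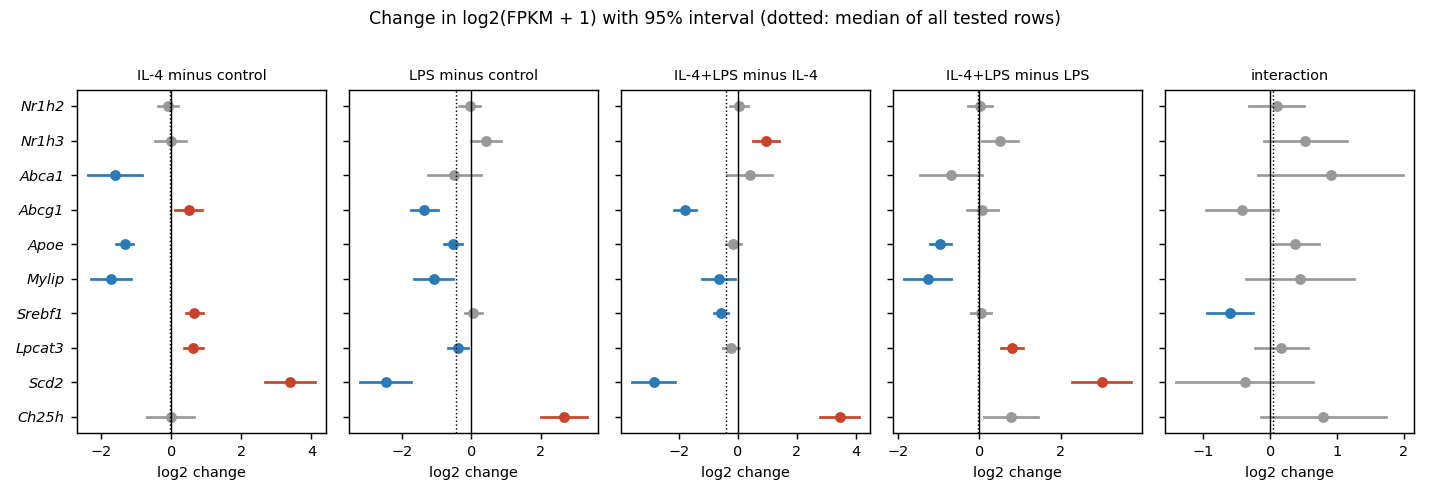
Change of each gene in log2(FPKM + 1) in the 5 comparisons, with its 95% interval; red is higher, blue lower and grey not past the threshold, and the dotted line is the median of all tested rows. Scd2 spans the widest range, from -2.85 to 3.38, and Nr1h2 stays at 0 within its interval in all 5.

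The receptors behaved differently from each other. Nr1h2, which encodes LXRβ (chr7:44549633-44553923, mm10, minus strand), had 40.6, 50.6 and 49.8 FPKM in the control samples, 38.0, 48.6 and 46.0 FPKM after IL-4, 40.9, 48.3 and 46.5 FPKM after LPS and 38.4, 49.5 and 49.0 FPKM after IL-4 and LPS. The groups overlapped fully. Its changes were -0.087 (95% interval -0.38 to 0.21, adjusted p = 0.646) with IL-4 and -0.052 (95% interval -0.34 to 0.24, adjusted p = 0.737) with LPS. LPS after IL-4 gave 0.043 (95% interval -0.25 to 0.34, adjusted p = 0.782), IL-4+LPS against LPS 0.0072 (95% interval -0.29 to 0.30, adjusted p = 0.979) and the interaction 0.095 (95% interval -0.32 to 0.51, adjusted p = 0.814). With median scaling its LPS change after IL-4 was 0.40 (adjusted p = 0.025).

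Nr1h3, which encodes LXRα (chr2:91184061-91195116, minus strand), had 25.0, 36.6 and 31.6 FPKM in controls and 21.5, 38.4 and 34.0 FPKM after IL-4. It had 48.0, 40.2 and 37.2 FPKM after LPS and 59.6, 58.4 and 61.2 FPKM after both agents. The 3 samples given both agents lay close together and above all 9 others, while the control and IL-4 samples overlapped and spread widely. The IL-4 change was -0.013 (95% interval -0.45 to 0.43, adjusted p = 0.973). LPS raised Nr1h3 in IL-4-pretreated cells by 0.95 ± 0.20 (SE, adjusted p = 0.00136) on the log2 scale. In cells without IL-4 the LPS change was 0.43 ± 0.20 (SE, adjusted p = 0.0731), which did not pass. It was 0.79 (adjusted p = 0.00354) with median scaling and 0.55 (adjusted p = 0.0441) without control replicate 2. Without control replicate 1 it was 0.28 (adjusted p = 0.246), and without LPS replicate 1 0.32 (adjusted p = 0.207). With replicates 2 and 3 only it was 0.18 (adjusted p = 0.102). Leaving out IL-4 replicate 1, a sample of neither group, kept the value at 0.43 and changed only the spread shared by the groups (adjusted p = 0.0169). The difference between both responses was 0.53 (95% interval -0.095 to 1.15, adjusted p = 0.293), and with replicates 2 and 3 only it was 0.53 (adjusted p = 0.0262). IL-4+LPS against LPS gave 0.51 ± 0.20 (SE, adjusted p = 0.0752). That difference passed with replicates 2 and 3 only (0.62, adjusted p = 0.00191). Without IL-4 replicate 1, again a sample of neither group, the value stayed at 0.51 and only the shared spread changed (adjusted p = 0.0181).

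Within a sample the ratio of Nr1h3 to Nr1h2 does not depend on scaling between samples. It was 0.658 ± 0.058 in controls, 0.698 ± 0.118 after IL-4, 0.936 ± 0.207 after LPS and 1.33 ± 0.198 after both (SD, n = 3). The transcript of LXRα thus exceeded that of LXRβ, per length, in all 3 samples given both agents and in 1 LPS sample, replicate 1 at 1.17.

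Abca1 encodes the pump that loads cholesterol and phospholipid onto lipid-poor apolipoprotein (chr4:53030789-53159895, minus strand). It had 90.5, 58.5 and 60.3 FPKM in controls, 31.1, 18.6 and 18.3 FPKM after IL-4, 69.4, 40.5 and 40.5 FPKM after LPS and 50.6, 22.9 and 22.4 FPKM after both. Every IL-4 sample was below every control sample, and in each group replicate 1 was well above the other two. The log2 change with IL-4 was -1.59 ± 0.35 (SE, adjusted p = 0.00476), a call that held in all 23 alternative settings. The LPS change was -0.49 (95% interval -1.25 to 0.28, adjusted p = 0.221) in cells without IL-4 and 0.42 (95% interval -0.35 to 1.18, adjusted p = 0.294) in cells with it. With replicates 2 and 3 only these became -0.54 (adjusted p = 1.96e-05) and 0.28 (adjusted p = 0.00048), opposite in sign, and the difference between them was 0.82 (adjusted p = 0.000229) where the fit of all samples gave 0.90 (95% interval -0.18 to 1.99, adjusted p = 0.301). IL-4+LPS against LPS was -0.69 ± 0.35 (SE, adjusted p = 0.162), and -0.81 (adjusted p = 1.69e-05) with replicates 2 and 3 only. Without IL-4+LPS replicate 1 alone it was -1.07 (adjusted p = 0.0222), but that fit kept the high replicate 1 in the LPS group. With the replicate number fitted as a block, the LPS change without IL-4 passed (adjusted p = 0.00143). So did IL-4+LPS against LPS (adjusted p = 0.000586) and the difference between the LPS responses (adjusted p = 0.00333).

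LXR and RXR bind paired half-sites spaced by 4 bases, known as DR4 elements, and no binding was measured in these files. Promoter sequence was available for 8 of the 10 genes, 13 windows in all, from RefSeq (GRCm38.p6, 250 bases before to 50 after each start). The textbook motif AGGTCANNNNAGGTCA was in 5 of 32851 windows (0.0152%), none of them of these genes. With up to 2 mismatches it was in 3.02% of windows and again in none of these genes, on either strand. The related form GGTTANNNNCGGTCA, chosen after the windows had been read, was in 4 windows (0.0122%), those of Abca1, Srebf1, Fasn and Prrg4, in each case on the strand opposite to the gene. The elements are shown because Abca1 and Srebf1, which carry them, moved in opposite directions after IL-4. As the form was chosen after reading the windows, its low share is no test of these genes. A link between the element and expression was not tested. Capitals mark the fixed letters, read on the strand that matches the motif.
Abca1, chr4:53159948-53159962, 67 to 53 bases before the start: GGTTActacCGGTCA
Srebf1, chr11:60210639-60210653, 182 to 168 bases before a start: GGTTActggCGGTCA
Fasn, chr11:120824758-120824772, 225 to 211 bases before a start: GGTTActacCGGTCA
Prrg4, chr2:104849903-104849917, 67 to 53 bases before the start: GGTTAccttCGGTCA
After IL-4, Abca1 fell while Srebf1 and Fasn, the fatty acid synthase gene, rose. Prrg4 was at most 0.198 FPKM in all 12 samples. The Abca1 promoter holds the element close to a TATA-like TATAAA, which lies 29 to 24 bases before the start and is found in 13.6% of all windows, and an E-box CACGTG (7.15% of windows). The 250 bases before the start (chr4:53159896-53160145, minus strand, capitals for the DR4 form as it reads along the gene) are:
Abca1 promoter: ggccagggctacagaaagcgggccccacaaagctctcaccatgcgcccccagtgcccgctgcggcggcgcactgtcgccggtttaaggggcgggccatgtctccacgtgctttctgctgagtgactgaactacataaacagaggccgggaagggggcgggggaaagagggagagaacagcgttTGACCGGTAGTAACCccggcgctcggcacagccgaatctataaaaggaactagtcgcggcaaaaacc

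Abcg1, which passes cholesterol to mature HDL particles (chr17:31057694-31117981, plus strand), took another course. It had 77.0, 71.2 and 65.0 FPKM in controls and 106, 96.5 and 98.7 FPKM after IL-4, with no overlap and the IL-4 samples higher. It had 33.4, 23.9 and 24.7 FPKM after LPS and 38.5, 23.9 and 25.1 FPKM after both, which overlapped each other and lay below every sample without LPS. Its log2 change with LPS was -1.36 ± 0.17 (SE, adjusted p = 3.93e-05) without IL-4 and -1.78 ± 0.17 (SE, adjusted p = 6.41e-06) after IL-4. The difference between these responses was -0.42 (95% interval -0.97 to 0.12, adjusted p = 0.342), and -0.50 (adjusted p = 0.00571) with replicates 2 and 3 only. IL-4+LPS against LPS was 0.073 (95% interval -0.31 to 0.46, adjusted p = 0.799). The rise with IL-4 was 0.50 ± 0.17 (SE, adjusted p = 0.0457). This call was close to the threshold: it was lost in 9 of 12 fits with 1 sample left out, any control or IL-4 sample, LPS replicate 2 or 3 or IL-4+LPS replicate 3 (adjusted p = 0.0521 to 0.134), and with quantile normalization (0.42, adjusted p = 0.0889).

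The balance of the pumps within a sample differed with either agent alone. The ratio of Abcg1 to Abca1 was 1.05 ± 0.185 in controls, 4.67 ± 1.09 after IL-4, 0.560 ± 0.0692 after LPS and 0.975 ± 0.189 after both (SD, n = 3). The 3 IL-4 samples, at 3.42 to 5.39, lay above all others and the 3 LPS samples, at 0.481 to 0.610, below all others. The samples given both agents, at 0.760 to 1.12, overlapped with the controls, at 0.851 to 1.22.

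**Figure D3:**
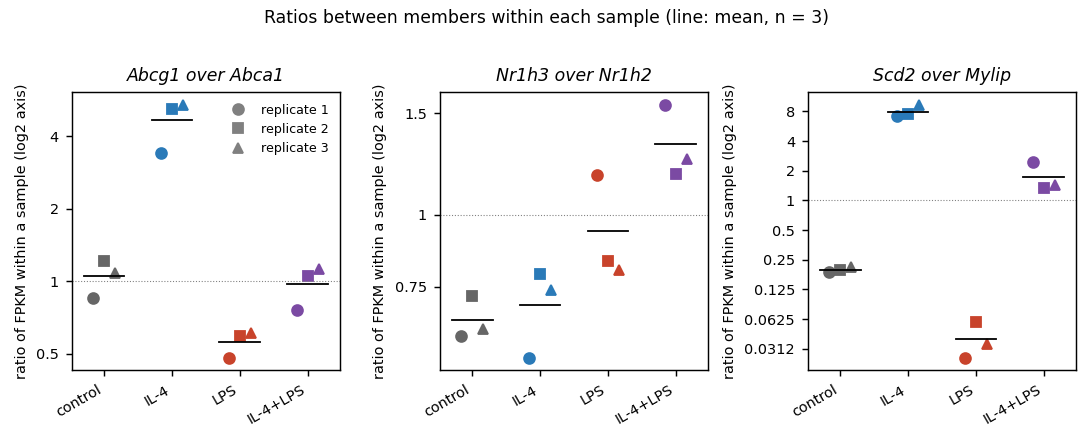
Ratios of FPKM between pairs of the 10 genes within each sample on log2 axes, with replicates 1 to 3 as circles, squares and triangles and the mean as a line (n = 3). Abcg1 exceeded Abca1 3.42 to 5.39 times in the IL-4 samples, Nr1h3 exceeded Nr1h2 in all 3 samples given both agents, and Scd2 over Mylip ran from 0.0255 to 9.33.

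Apoe encodes the apolipoprotein that carries exported lipid (chr7:19696244-19699166, minus strand) and was by far the most abundant of the genes, at the 99.9th percentile of tested rows by mean level. It had 8023, 7751 and 7072 FPKM in controls, 3284, 3097 and 2709 FPKM after IL-4, 5659, 5361 and 4882 FPKM after LPS and 2943, 2944 and 2310 FPKM after both. All 6 samples with IL-4 were below all LPS samples, and these below all controls. The log2 change was -1.33 ± 0.12 (SE, adjusted p = 1.19e-05) with IL-4 and -0.96 ± 0.12 (SE, adjusted p = 0.000125) for IL-4+LPS against LPS. The smaller LPS change of -0.52 ± 0.12 (SE, adjusted p = 0.00178) was lost with median scaling (-0.15, adjusted p = 0.273) and quantile normalization (-0.17, adjusted p = 0.301). After IL-4 the LPS change was -0.15 (95% interval -0.41 to 0.10, adjusted p = 0.247), and the interaction was 0.37 (95% interval 0.0088 to 0.73, adjusted p = 0.197).

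Mylip encodes the LXR-induced ubiquitin ligase that limits lipoprotein uptake (chr13:45389742-45411940, plus strand). Its levels went from 52.3, 39.6 and 39.5 FPKM in controls to 30.3, 15.3 and 16.9 FPKM after LPS and 14.7, 12.2 and 11.2 FPKM after IL-4. With both agents it was lowest, at 10.8, 6.00 and 6.95 FPKM. None of the 4 groups overlapped with its neighbour in this order. The log2 change was -1.71 ± 0.26 (SE, adjusted p = 0.000542) with IL-4 and -1.09 ± 0.26 (SE, adjusted p = 0.00282) with LPS, and IL-4+LPS against LPS was -1.27 ± 0.26 (SE, adjusted p = 0.00385). LPS after IL-4 gave -0.65 ± 0.26 (SE, adjusted p = 0.0419), a call that was lost with median scaling (-0.32, adjusted p = 0.304), with quantile normalization (-0.28, adjusted p = 0.367) and in 7 of 12 fits without 1 sample (adjusted p = 0.0532 to 0.147), those without control replicate 2 or 3, any IL-4 sample or IL-4+LPS replicate 2 or 3. The interaction was 0.44 (95% interval -0.37 to 1.25, adjusted p = 0.527), and 0.48 (adjusted p = 0.0276) with replicates 2 and 3 only.

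Srebf1 encodes SREBP-1, the transcription factor of fatty acid synthesis and a direct LXR target (chr11:60199089-60220604, minus strand). It had 16.4, 20.3 and 19.5 FPKM in controls, 25.9, 32.1 and 32.3 FPKM after IL-4, 17.3, 20.8 and 20.2 FPKM after LPS and 19.5, 20.0 and 20.8 FPKM after both. The 3 IL-4 samples lay above all others, and the other 3 groups overlapped. IL-4 raised it by 0.66 ± 0.11 (SE, adjusted p = 0.00102). The LPS change was 0.052 (95% interval -0.19 to 0.29, adjusted p = 0.681) in cells without IL-4 and -0.56 ± 0.11 (SE, adjusted p = 0.000928) in cells with it. The difference between these responses was -0.61 ± 0.15 (SE, adjusted p = 0.035). It was lost in 9 of 12 fits with 1 sample left out (adjusted p = 0.0552 to 0.0932), namely without control replicate 1 or 3, IL-4 replicate 2 or 3, LPS replicate 2 or 3 or any IL-4+LPS sample. IL-4+LPS against LPS was 0.048 (95% interval -0.19 to 0.29, adjusted p = 0.789). With median scaling Srebf1 rose with LPS alone by 0.40 (adjusted p = 0.00636) and its LPS change after IL-4 was -0.21 (adjusted p = 0.119). Its promoter with the DR4 form is shown for comparison with that of Abca1 (chr11:60210472-60210721, minus strand, capitals for the element).
Srebf1 promoter: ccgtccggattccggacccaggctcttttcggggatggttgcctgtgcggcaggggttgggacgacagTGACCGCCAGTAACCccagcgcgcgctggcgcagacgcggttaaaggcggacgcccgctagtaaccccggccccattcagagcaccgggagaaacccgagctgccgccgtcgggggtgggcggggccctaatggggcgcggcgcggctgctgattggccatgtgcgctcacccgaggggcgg

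A second Srebf1 start held TTCNNNNGAA, the spacing bound by STAT6, 27 to 36 bases after the start. That motif was in 6.95% of all windows and in no other window of these genes.

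Lpcat3 encodes the acyltransferase that puts polyunsaturated fatty acids into phospholipids (chr6:124663104-124704716, plus strand). It had 23.2, 29.3 and 28.1 FPKM in controls and 35.9, 46.4 and 44.7 FPKM after IL-4, with no overlap. It had 18.1, 21.8 and 21.2 FPKM after LPS, below all controls, and 32.1, 37.6 and 38.6 FPKM after both, above all controls. IL-4 raised it by 0.63 ± 0.13 (SE, adjusted p = 0.00289) alone and by 0.80 ± 0.13 (SE, adjusted p = 0.000812) in LPS-exposed cells. The LPS change was -0.38 ± 0.13 (SE, adjusted p = 0.0172), but with median scaling it was -0.028 (adjusted p = 0.858), and it was also lost without control replicate 2, control replicate 3 or LPS replicate 1 (adjusted p = 0.057 to 0.0665). After IL-4 the LPS change was -0.22 (95% interval -0.50 to 0.058, adjusted p = 0.135), -0.25 (adjusted p = 0.00163) with replicates 2 and 3 only and -0.33 (adjusted p = 0.0348) without IL-4 replicate 1, and the interaction was 0.16 (95% interval -0.23 to 0.56, adjusted p = 0.64). Exons of Lpcat3 overlap those of Emg1 on the opposite strand over 10.2% of their bases, and whether strand was used in counting is not given in the sources used here.

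Scd2 encodes a stearoyl-CoA desaturase, which makes monounsaturated fatty acids (chr19:44293676-44306862, plus strand), and it changed over the widest range. It had 9.84, 7.86 and 8.32 FPKM in controls and 104, 90.5 and 104 FPKM after IL-4. It had 0.770, 0.892 and 0.587 FPKM after LPS and 26.7, 8.00 and 9.89 FPKM after both. IL-4 samples were far above and LPS samples far below every other sample, and samples given both agents lay within or above the control range, with replicate 1 the highest. Its place among the tested rows moved from the 47.2nd percentile in controls to the 93.3rd after IL-4, the 11.6th after LPS and the 67.5th after both. The log2 change was 3.38 ± 0.33 (SE, adjusted p = 2.61e-05) with IL-4, -2.46 ± 0.33 (SE, adjusted p = 4.95e-05) with LPS, -2.85 ± 0.33 (SE, adjusted p = 2.01e-05) with LPS after IL-4 and 3.00 ± 0.33 (SE, adjusted p = 6.26e-05) for IL-4+LPS against LPS. The interaction of -0.38 (95% interval -1.40 to 0.64, adjusted p = 0.676) turned positive, to 0.43, with a pseudocount of 0.1. It was -0.88 (adjusted p = 0.00966) without IL-4+LPS replicate 1 and -0.92 (adjusted p = 0.0143) with replicates 2 and 3 only. Both of these fits used log2(FPKM + 1), which understates the fall with LPS alone, to levels of 0.587 to 0.892 FPKM. They were not run with the smaller pseudocount, so they do not settle the sign of the Scd2 interaction. Of the 50-base words of Scd2, 4.01% occur in other genes, among them Scd1.

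Scd2 and Mylip are LXR targets that IL-4 moved in opposite directions. The ratio of Scd2 to Mylip was 0.199 ± 0.0113 in controls, 7.96 ± 1.19 after IL-4, 0.0395 ± 0.017 after LPS and 1.75 ± 0.636 after both (SD, n = 3). No sample of one group overlapped with another group in this ratio.

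Ch25h encodes cholesterol 25-hydroxylase, which makes 25-hydroxycholesterol and is encoded by 1 exon (chr19:34473784-34475135, minus strand). It had 0, 0.0540 and 0.0880 FPKM in controls and 0.0730, 0.0410 and 0 FPKM after IL-4, which the steps of the values showed to stand for 0 to 4 fragments a sample. After LPS it had 4.49, 6.05 and 6.52 FPKM, from 64, 218 and 129 fragments, and after both agents 5.11, 14.9 and 14.3 FPKM, from 70, 260 and 389. All 6 samples with LPS were above all 6 without. The change in log2(FPKM + 1) was 2.66 ± 0.30 (SE, adjusted p = 1.51e-05) with LPS and 3.46 ± 0.30 (SE, adjusted p = 2.79e-06) with LPS after IL-4, and no fold is given against groups with so few fragments. The IL-4 change was -0.013 (95% interval -0.68 to 0.65, adjusted p = 0.984). IL-4+LPS against LPS was 0.78 ± 0.30 (SE, adjusted p = 0.0731), with replicates 2 and 3 well above all LPS samples and replicate 1 among them. Without IL-4+LPS replicate 1 that difference was 1.23 (adjusted p = 8.44e-05), and the interaction, 0.79 (95% interval -0.14 to 1.73, adjusted p = 0.293) over all samples, was 1.24 (adjusted p = 0.00171). But that fit dropped the lowest sample of the IL-4+LPS group and kept the lowest of the LPS group, also a replicate 1. With replicates 2 and 3 only the difference was 1.10 (adjusted p = 5.01e-05) and the interaction 1.17 (adjusted p = 0.000569). Exons of Ch25h overlap the RNA gene Gm26902 on the opposite strand over 11.5% of their bases.

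The Ch25h promoter is shown because LPS raised this gene with and without IL-4. It holds TGACGTCA, the cAMP response element to which ATF and AP-1 family factors bind, 61 to 54 bases before the start, a motif in 1.79% of all windows and in no other window of these genes. The bases before the start follow (chr19:34475149-34475398, minus strand, capitals for the element).
Ch25h promoter: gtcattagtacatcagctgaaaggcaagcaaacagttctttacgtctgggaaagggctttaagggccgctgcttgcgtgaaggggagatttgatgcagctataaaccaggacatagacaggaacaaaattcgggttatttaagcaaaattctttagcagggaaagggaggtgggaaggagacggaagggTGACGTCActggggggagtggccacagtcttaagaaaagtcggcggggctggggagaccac

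Other genes of the pathway were read from 4 lists of 58 genes, of which 45 reached 1 FPKM in a sample. With IL-4, 7 of the 45 rose and 16 fell, and with LPS 5 rose and 31 fell, against the same backgrounds as above. With median scaling 9 rose and 20 fell with LPS, beside 26.5% and 39.8% of all rows, and with quantile normalization 10 rose and 25 fell, beside 25.9% and 38.7%. The list medians are given beside those of all tested rows, -0.049 for IL-4 and -0.44 for LPS.

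Among 12 further LXR targets, IL-4 raised 4 and lowered 6 (median -0.62). The genes that rose make fatty acids, namely Scd1, Fasn, Acaca and Elovl5. Scd1, the desaturase next of kin to Scd2, rose by 1.71 (adjusted p = 5.21e-07) from 0.304 ± 0.00742 FPKM to 3.28 ± 0.323 FPKM, and Fasn by 1.55 (adjusted p = 0.000129) from 4.07 ± 0.995 FPKM to 13.8 ± 2.54 FPKM. The genes that fell were Cd5l, Apoc2, Apoc1, Mertk, Pltp and Smpdl3a, of which Apoc2, Apoc1 and Pltp act in lipoprotein metabolism. Cd5l, a secreted scavenger protein, fell by 2.25 (adjusted p = 5.41e-05) from 369 ± 97.1 FPKM to 76.3 ± 17.4 FPKM. Apoc2, an activator of lipoprotein lipase, changed by -1.69 (adjusted p = 0.00134). LPS lowered 10 of the 12 and raised 0 (median -0.65). At an unadjusted p under 0.05 there were 10, in either direction, beside 8522 of the 11191 rows. The largest drop was in Arl4c, a small GTPase linked to cholesterol efflux, from 61.9 ± 1.14 FPKM to 1.20 ± 0.613 FPKM, a change of -4.87 (adjusted p = 4.23e-07).

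Mertk, a receptor for apoptotic cells, was the member of that list whose LPS response turned with IL-4. It had 31.9 ± 6.21 FPKM in controls, 11.3 ± 0.691 FPKM after IL-4, 9.90 ± 1.19 FPKM after LPS and 18.1 ± 4.23 FPKM after both. Its log2 change with LPS was -1.58 (adjusted p = 1.28e-05) without IL-4 and 0.61 (adjusted p = 0.00899) after IL-4, and the interaction was 2.19 (adjusted p = 0.000569).

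Of 14 sterol transport and storage genes, 8 were lower and 3 higher after LPS (median -0.28), and 2 were higher and 0 lower after IL-4 (median -0.041). At an unadjusted p under 0.05 there were 6 of 14 with IL-4, in either direction, beside 5076 of the 11191 rows. Nceh1, which hydrolyses stored cholesteryl ester, fell by 2.45 (adjusted p = 5.96e-08) with LPS, and Soat1, which forms the ester, fell by 1.86 (adjusted p = 8.44e-07). Cav1, the caveolae protein, rose by 4.70 (adjusted p = 2.15e-05) and Gramd1a, a sterol carrier between plasma membrane and endoplasmic reticulum, by 2.60 (adjusted p = 3.47e-06). Stard4, a cytosolic sterol carrier, rose with IL-4 by 1.87 (adjusted p = 1.21e-05) and Npc2 by 0.19 (adjusted p = 0.0145).

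The oxysterol list had 4 genes tested. LPS lowered 3 and raised 0 (median -1.30), beside 57.7% of all rows lower. At an unadjusted p under 0.05 there were 3, in either direction, beside 8522 of the 11191 rows. With so few genes these shares are not told apart from those of all rows. IL-4 raised 1 and lowered 1. Gpr183, the receptor for an oxysterol made from 25-hydroxycholesterol, went from 11.3 ± 0.374 FPKM to 0.363 ± 0.0766 FPKM, a change of -3.17 (adjusted p = 2.97e-09). Cyp27a1, which makes 27-hydroxycholesterol, fell by 1.59 (adjusted p = 1.78e-06) with LPS and fell by 1.29 (adjusted p = 4.37e-05) with IL-4, and it was lowest with both, at 5.51 ± 0.938 FPKM against 39.9 ± 3.92 FPKM in controls.

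Of 15 partners and coregulators, LPS lowered 10 and raised 2 (median -0.58) and IL-4 lowered 9 and raised 0 (median -0.30). At an unadjusted p under 0.05 there were 10 of 15 with IL-4, in either direction, beside 5076 of the 11191 rows. Rxra, the main macrophage partner of LXR, went from 24.9 ± 2.15 FPKM to 3.50 ± 0.768 FPKM with LPS, a change of -2.53 (adjusted p = 8.76e-08). With IL-4 the changes were -0.53 (adjusted p = 0.00115) for the coactivator Ncoa3, -0.47 (adjusted p = 0.00457) for Rxrb and -0.47 (adjusted p = 0.0221) for Rxra. The transcript of Nr1h3 thus rose with LPS after IL-4 while that of Rxra fell by 1.59 (adjusted p = 2.72e-06).

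**Figure D4:**
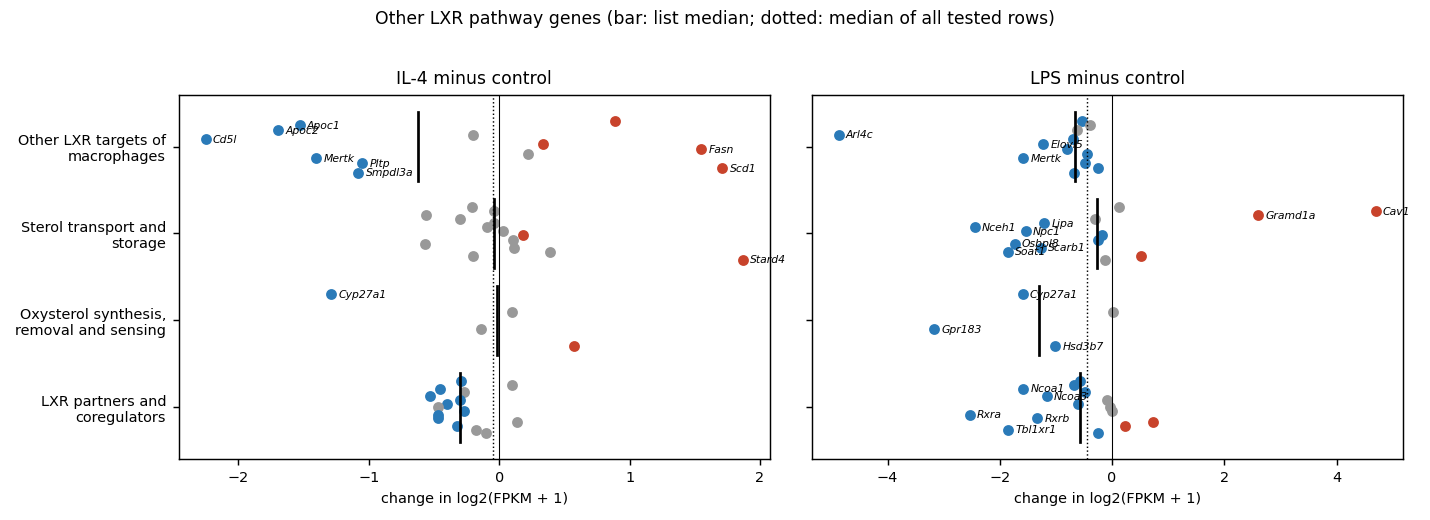
Changes in log2(FPKM + 1) of the other LXR pathway genes by list, with IL-4 on the left and LPS on the right; red is higher, blue lower, grey not past the threshold, the thick bar the list median and the dotted line the median of all tested rows. Stard4 (1.87) and Cd5l (-2.25) mark the ends with IL-4, and Cav1 (4.70) and Arl4c (-4.87) those with LPS.

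The genes whose levels ran most closely with each of the genes that passed in a comparison (all but Nr1h2) were ranked by Pearson's r of log2(FPKM + 1) over the 12 samples, which fall into the 4 groups, so r mostly describes the group means. For Abca1 the nearest was the complement gene C1qa (r = 0.975), at mean levels of 476, 194, 410 and 228 FPKM in the control, IL-4 and LPS groups and the group given both. For Abcg1 it was the vesicle protein gene Vamp4 (r = 0.997), for Apoe Sirpb1a (r = 0.985), and for Mylip Itm2b (r = 0.989). Srebf1 ran closest with Nsmf (r = 0.972), Lpcat3 with Bcap31 (r = 0.995), an endoplasmic reticulum protein, and Scd2 with Casp6 (r = 0.989). Nr1h3 ran closest with Tbc1d13 (r = 0.950). Ch25h ran closest with Lad1 (r = 0.995), and the nitric oxide synthase gene Nos2 was the third (r = 0.994), at 0.13, 0.0817, 61.3 and 189 FPKM. The 10 genes also differed among themselves, since Apoe and Mylip had r = 0.935, Abca1 and Lpcat3 r = -0.803, and Abca1 and Abcg1 r = -0.038.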

How the data were processed

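Poly-A selected RNA of 12 BMDM samples was sequenced, 3 samples in each of 4 groups taken from the labels. The deposited tables, 1 per sample, held FPKM values that the authors computed with Cufflinks 2.0.2 after mapping to mm10 with TopHat2 2.0.7, per the submitters' processing notes. The gene annotation and the use of strand are not given in the sources used here. FPKM are scaled to each sample's mapped fragments, so a shift in RNA composition moves all other genes. Fragment counts were not used, absolute depth was unknown, and no count interval was formed. Relative depth and the fragments behind Ch25h were read from the steps of low values. Starts counted from 0 in the files were printed counted from 1.

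Rows with at least 1 FPKM in at least 1 sample (11191 of 23847) were transformed to log2(FPKM + 1). The means of the 4 groups were fitted to the 12 samples together, using limma 3.58.1 (R 4.3.3) with an intensity trend, and p-values were adjusted by Benjamini-Hochberg within each of 5 contrasts, with a threshold of 0.05. No test was stated by the study for this comparison. The script was tested on simulated data. The 10 genes and the pathway lists were chosen with earlier results of these data known. Named beside the 10 were, per list and contrast, at most the 4 called genes with the largest change, and for each called member the 3 expressed genes with the highest r. Genes outside that rule (Acaca, Elovl5, Apoc1, Pltp and Smpdl3a with IL-4, Prrg4) were named after their values were seen. Some genes of the pathway are not reported here and were left out of the lists. The macrophage marker Spi1 and the neutrophil marker Ly6g were not analysed here.

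Alternatives were other scalings (quantile normalization, median scaling), other filters (none, or 1 FPKM in 3 samples), a pseudocount of 0.1, no trend, Tukey's test gene by gene, a 2-fold minimum, a replicate block, the compared groups alone, each sample left out, and replicates 2 and 3 only. The p-values of Tukey's test, and of the F test used beside it for the interaction, were not adjusted across genes. Promoter windows and gene models were RefSeq (GRCm38.p6) and GENCODE vM21. Promoters of Abcg1 and Scd2 were not analysed here. Figures were drawn with matplotlib 3.10.9.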

Additional observations from a re-analysis of the deposited data

Results flagged for a closer look

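Each result here is a difference between the LPS response after IL-4 and the LPS response without it, on the log2(FPKM + 1) scale, that passed limma's test of the difference itself at an adjusted p under 0.05. Srebf1 had -0.61, the only one of the 10 genes to pass, and the call was lost in 9 of 12 fits with 1 sample left out. Among the other LXR pathway genes Mertk had 2.19, Scd1 -0.79, Gramd1b 1.16, Npc2 0.25, Ncoa3 0.96 and Rxra 0.94. Scd1 was at or below 3.59 FPKM in every sample, where the log2(FPKM + 1) scale understates change, and with a pseudocount of 0.1 or quantile normalization 0 of the listed genes were called negative. The difference for Npc2 lay at the threshold (adjusted p = 0.0496).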

How the results depend on the processing

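Of 50 changes (10 genes in 5 comparisons), 24 passed the threshold, 0 of these reversed in any of 23 alternative settings, and 18 kept their direction and their side of the threshold in all settings other than the 2-fold minimum. With LPS, 1 gene higher and 5 lower became 3 higher and 3 lower with median scaling, beside 26.5% and 39.8% of all rows. With quantile normalization 1 was higher and 3 lower, beside 25.9% and 38.7%. For LPS after IL-4, 2 rather than 4 were lower with median scaling, beside 36.3% of all rows. A 2-fold minimum left 1 higher and 3 lower with LPS, beside 7.89% and 19.0% of all rows. With IL-4 it left 1 higher and 3 lower, beside 2.76% and 3.49%. With LPS after IL-4 it left 1 higher and 2 lower, beside 7.52% and 15.1%. For IL-4+LPS against LPS it left 1 in each direction, beside 2.71% higher and 2.97% lower. It left 0 with a positive or a negative interaction, beside 1.30% and 1.39%. With replicates 2 and 3 only, 4 genes were higher and 3 lower for IL-4+LPS against LPS, beside 21.0% and 25.9% of all rows. The interaction then had 4 positive and 3 negative, beside 13.2% and 12.4%. With 1 sample left out, 1 to 2 genes were higher with LPS, beside 15.3% to 17.6% of all rows. In those fits the interaction had 0 to 1 positive, beside 2.78% to 5.58% of all rows, and 0 to 1 negative, beside 2.98% to 5.83%. A group reduced to 2 samples shares the spread of the other groups. The causes of these changes were not tested.

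Changes that did not pass the threshold could turn sign. With median scaling these were Nr1h2 with LPS (0.31), Nr1h3 with IL-4 (0.0092), and with LPS after IL-4 Apoe (0.21) and Lpcat3 (0.13). With quantile normalization they were Nr1h2 for IL-4+LPS against LPS (-0.029) and the Apoe interaction (-0.0092). With a pseudocount of 0.1 the Scd2 interaction was 0.43, and with replicates 2 and 3 only Nr1h3 with IL-4 was 0.084 and Srebf1 for IL-4+LPS against LPS -0.0078. With 1 sample left out, Nr1h2 ran from -0.19 to 0.015 with IL-4, -0.15 to 0.018 with LPS, -0.060 to 0.16 with LPS after IL-4, -0.063 to 0.12 for IL-4+LPS against LPS and -0.0078 to 0.21 for the interaction. In those fits Nr1h3 ran from -0.18 to 0.23 and Ch25h from -0.046 to 0.015 with IL-4, Srebf1 from -0.037 to 0.13 with LPS, and for IL-4+LPS against LPS Abcg1 ran from -0.14 to 0.22 and Srebf1 from -0.029 to 0.096.

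The replicate numbers were not taken as a pairing, since which sample came from which animal or experiment was not given. The deviations of samples that share a number were all positively correlated, with r over 0.1 in 11 of 18 pairs (mean 0.124, range 0.0024 to 0.386). On the main axis of these deviations (28.2% of their variance) samples numbered 1 lay at 15.5 to 33.3. Those numbered 2 lay at -18.6 to -9.49 and those numbered 3 at -14.7 to -4.45. Without a block, this shared deviation counts as spread between samples. With the number as a replicate block the interaction had 2 positive genes, beside 10.2% of all rows, Abca1 (0.90, adjusted p = 0.00333) and Apoe (0.37, adjusted p = 0.00726). The block also brought past the threshold Abca1 with LPS (-0.49), with LPS after IL-4 (0.42) and for IL-4+LPS against LPS (-0.69), Apoe (-0.15) and Lpcat3 (-0.22) with LPS after IL-4, and Ch25h for IL-4+LPS against LPS (0.78). Depth limits Ch25h, at most 4 fragments per sample without LPS.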
